A study of Mus musculus with 620 samples.

Results

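Transcripts of 67 cytochrome P450 genes of families 1 to 4 were followed through the mouse tissues of a study of ageing and of exenatide, a peptide drug that acts on GLP-1R, the receptor of glucagon-like peptide-1. The genes were chosen by name: 71 of the 24850 genes in the LT count table had a symbol made of Cyp, a family number from 1 to 4, letters and a number, and Cyp2a4, Cyp2b9, Cyp4a12a and Cyp2d9 were left out. Family 2 held 43 of them, family 4 held 17, family 3 held 4 and family 1 held 3, and the Cyp2c subfamily alone held 15. Poly(A) RNA was sequenced in 620 libraries from 72 mice, each of which belonged to 1 condition in 1 of 3 cohorts that the labels call LT, YA and ST. LT compared aged mice given exenatide (labelled LT_A_Ex, 8 animals) with aged controls (LT_A_ctrl, 9), and aged controls with young controls (LT_Y_ctrl, 8), in 12 tissues. YA, named a young cohort in the deposited data, compared exenatide-treated mice (YA_Ex) with controls (YA_ctrl), 8 animals each, in 8 tissues. ST compared, in 7 tissues with 5 animals per group, aged mice given exenatide (ST_A_Ex), aged mice given exenatide on top of a knockdown of GLP-1R in the hypothalamus (ST_A_Ex_KD), aged mice given rapamycin, an inhibitor of the mTOR kinase (ST_A_rapa), aged mice with the knockdown alone (ST_A_ctrl_KD), aged controls (ST_A_ctrl) and young controls (ST_Y_ctrl). Smaller groups were LT white blood cells (5 in each), LT young colon and young muscle (6), LT frontal cortex and lung of aged controls (8), and ST white blood cells of the exenatide and rapamycin groups (4). The labels used here give no strain, sex, age in months, dose, length of treatment or means of knockdown. Liver, kidney and lung were part of LT only.

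P450 enzymes are membrane-bound haem proteins that insert oxygen into their substrates, using electrons passed on by the reductase encoded by Por. Families 1 to 3 handle most drugs and other foreign compounds and also steroids and arachidonic acid, while family 4 enzymes hydroxylate fatty acids and leukotrienes. The liver holds most of the enzymes, kidney, airway and gut carry sets of their own, and transcription of many members is set by ligand-activated receptors: the aryl hydrocarbon receptor for Cyp1a1, CAR (encoded by Nr1i3) for Cyp2b10, PXR (Nr1i2) for Cyp3a11 and PPAR-alpha for Cyp4a10 and Cyp4a14. In mouse liver several of them, such as Cyp2c69, Cyp2c40, Cyp2c39 and the Cyp4a12 genes, are also known for levels that differ between the sexes.

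Members lie in tight clusters, with 15 on chromosome 19, 14 on chromosome 4 and 10 on chromosome 7, and neighbours can be close copies. Sequences are shown for 4 neighbouring Cyp2c genes of chromosome 19, since 3 of them, Cyp2c68, Cyp2c69 and Cyp2c40, make up much of the exenatide result in liver and the remaining one, Cyp2c67, is the one of the 4 that did not pass the test there. The promoter bases are those of RefSeq on build GRCm38.p6, on the minus strand, written 5′ to 3′, and capitals mark CAAAGTCCA, a form of the motif bound by the hepatocyte factor HNF4A.

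Cyp2c68, chr19:39741102-39741251: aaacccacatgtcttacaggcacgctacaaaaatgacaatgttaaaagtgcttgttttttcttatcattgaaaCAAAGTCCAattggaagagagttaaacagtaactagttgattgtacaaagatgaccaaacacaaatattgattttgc
Cyp2c69, chr19:39886770-39886919: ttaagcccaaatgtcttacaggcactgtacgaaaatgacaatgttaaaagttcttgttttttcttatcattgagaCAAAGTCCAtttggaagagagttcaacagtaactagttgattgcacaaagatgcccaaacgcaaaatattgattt
Cyp2c40, chr19:39812815-39812964: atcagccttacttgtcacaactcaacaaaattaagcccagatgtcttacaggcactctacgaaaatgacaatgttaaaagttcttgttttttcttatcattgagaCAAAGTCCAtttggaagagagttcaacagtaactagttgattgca
Cyp2c67, chr19:39649043-39649192: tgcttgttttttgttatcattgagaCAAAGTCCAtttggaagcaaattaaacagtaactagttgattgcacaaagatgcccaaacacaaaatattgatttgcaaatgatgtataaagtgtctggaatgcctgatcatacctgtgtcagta

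The motif starts 77 bases before the annotated start site in Cyp2c68, 75 in Cyp2c69, 45 in Cyp2c40 and 125 in Cyp2c67. Searched on both strands of the 250 bases before the start site, it was found in 7 of the 53 members with a promoter in the table (13.21%), against 126 of 32851 promoters of all genes (0.38%); the 3 not printed were Cyp2c65, Cyp2c70 and Cyp3a11. These 7 share ancestry and are not independent of each other. Over the aligned promoter bases, Cyp2c69 and Cyp2c40 were 98.9% identical and Cyp2c68 and Cyp2c40 93.3%, whereas Cyp2c68 and the more distant Cyp2c39 were 63.5% identical. The transcripts share sequence too: 44.13% of the 100-base windows of Cyp2c40, 36.26% of Cyp2c69, 23.7% of Cyp2c67 and 19.82% of Cyp2c68 also occurred in another gene, so reads from them could be split between copies and their levels are uncertain. The same holds for Cyp4a12b, of which 36.24% of windows occurred elsewhere, most of them in Cyp4a12a, and to a smaller degree for Cyp4a32 (20.06%), Cyp2d10 (14.85%), Cyp2a5 (14.37%, with Cyp2a4) and Cyp4a10 (12.74%). None of the windows of Cyp4a14, Cyp2c39, Cyp2c38, Cyp2c23 or Cyp2b10 was shared.

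One further promoter is shown because Cyp1a1 differed between animals in the same way in lung, heart and adipose tissue. Its capitals mark GCGTG, the core of the element that the aryl hydrocarbon receptor binds, 54 bases before the start site on the plus strand.

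Cyp1a1, chr9:57697513-57697612: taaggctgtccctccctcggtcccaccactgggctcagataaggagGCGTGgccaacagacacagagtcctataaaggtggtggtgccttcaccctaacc

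GCGTG, again searched on both strands, was in 13 of 53 member promoters (24.53%) and in 28.16% of all promoters.

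Total counts per library ran from 15190156 to 33786473 in LT, 14980074 to 34148962 in YA and 14643141 to 56204846 in ST. Some libraries stood apart and bear on results below. The colon libraries of young A52 and A53 carried small intestine transcripts, with Sis, the brush border sucrase of small intestine, at 6503 and 7950.03 CPM (read counts brought to a common library total), against at most 25.8 in every other LT colon, and the colonocyte gene Aqp8 at 0 and 0.0469 CPM. The hippocampus library of young A53 held 7932 CPM of albumin and 836 CPM of Cyp2e1, against at most 1.59 CPM of Cyp2e1 in every other LT hippocampus, and the heart of aged control B16 held 23.5 CPM of Adipoq, an adipocyte gene. For the exenatide livers titled B13 and B14 the labels name these animals the other way round in another field, so that which of the 2 is which is uncertain. Below, the liver titled B13 or B14 is the one that carries that name in the counts. In bulk tissue, fewer cells of a type and less RNA per cell cannot be told apart.

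Each of the 4 organs was dominated by a few members. Levels per kilobase of transcript (CPM per kb, mean over LT libraries) allow genes of different length to be set side by side. In liver, Cyp2e1, which oxidises ethanol and small solvents, stood at 3730.3 CPM per kb and made up 40.2% of the members' summed level. It was followed by Cyp2d10 (519), Cyp2d26 (481), the coumarin hydroxylase Cyp2a5 (458), Cyp2f2 (422), the epoxygenase Cyp2c29 (387), the methylxanthine-oxidising Cyp1a2 (314) and the drug and steroid hydroxylase Cyp3a11 (282). Kidney was led by Cyp4b1, a family 4 enzyme that acts on fatty acids and several protoxins, at 1783 CPM per kb and 39.4% of the sum, ahead of Cyp2e1 (1001), the arachidonic acid epoxygenase Cyp2j5 (699.5), the fatty acid omega-hydroxylase Cyp4a10 (198), Cyp2a5 (177) and Cyp4a31 (167); next came Cyp2j11 (111) and Cyp2j13 (87.4). In lung, Cyp2f2, the naphthalene-activating enzyme of club cells, made up 64.2% at 1430.2 CPM per kb. Cyp4b1 (329.7), Cyp2b10 (214), Cyp2a5 (94.9), Cyp2s1 (39.6), Cyp4v3 (20.9), Cyp2d22 (18.2) and Cyp2e1 (15.8) came after it.

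Colon had a flatter profile. Over the 21 LT colons left without young A52 and A53, Cyp2c55 reached 151 CPM per kb, Cyp2c65 96.5, Cyp4f14, which hydroxylates leukotriene B4, 95, Cyp2d34 68.5, Cyp3a13 60.05, Cyp2j6 25.3, Cyp2s1 22.1 and Cyp2d26 16.8. With both libraries included, Cyp4f14 was at 137, Cyp3a13 at 112 and Cyp4v3, a fatty acid hydroxylase, entered the 8 highest at 24.5. Leaving out these libraries and the A53 hippocampus, 36 of 66 members with a known exon length were highest in liver. Another 8 were highest in kidney, 7 in colon, 5 in lung, 3 in hypothalamus, and 2 each in adipose tissue, spleen and white blood cells. The remaining 1 was highest in skeletal muscle. Summed over all members, P450 transcripts took 2.08% of counts in livers of exenatide-treated mice, 2.21% in aged controls and 2.09% in young controls, with ranges that overlapped (1.36 to 2.65%, 1.77 to 2.68% and 1.74 to 2.53%). The same shares were 0.986, 1.09 and 1.07% in kidney and 0.423, 0.55 and 0.486% in lung.

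**Figure D1:**
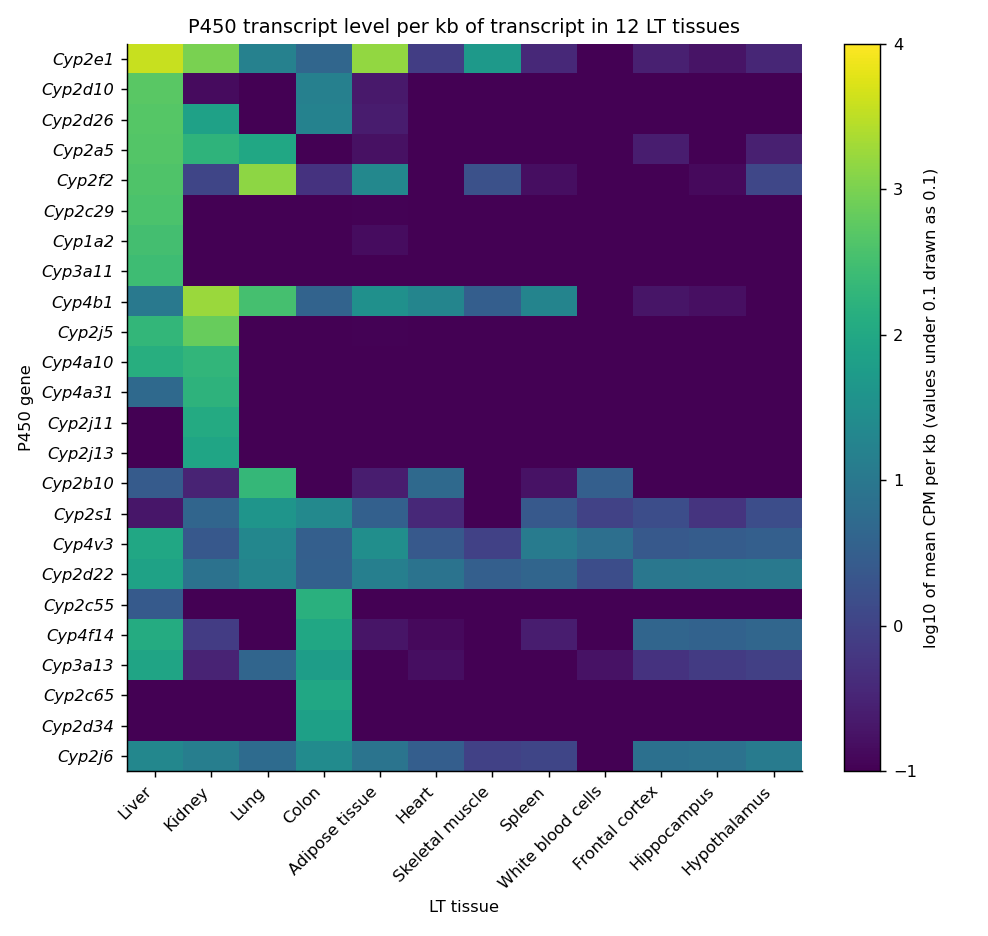
Mean level of 24 members, the 8 highest of each of liver, kidney, lung and colon, in the 12 LT tissues. Rows are genes, columns are tissues, and the colour is log10 of the mean CPM per kb over the libraries of a tissue, with values under 0.1 drawn as 0.1 and the young colons A52 and A53 and the young hippocampus A53 left out. Cyp2e1 is bright in liver, kidney and adipose tissue, Cyp4b1 in kidney and lung, and Cyp2c55, Cyp2c65 and Cyp2d34 stand out in colon.

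In liver the exenatide comparison called 8 members: Cyp2c68, Cyp2c69, Cyp2c40, Cyp2c39, Cyp4a31 and Cyp2a22 were higher, and Cyp4a12b and Cyp4v3 lower. Of the 53 members that passed the filter on low counts, 6 rose and 2 fell in livers of exenatide-treated aged mice relative to aged controls (edgeR's quasi-likelihood test with Benjamini-Hochberg adjustment, adjusted p under 0.05), while 1.04% of all genes were called. The median log2 fold change was -0.13 over the tested members and 0.01 over all tested genes. An unadjusted p under 0.05 was reached by 30 of the 53, and the share of all genes at that threshold is not given here.

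Cyp2c68 was the most abundant of the genes that rose. It stood at 194, 278 and 466.5 CPM (lowest, median and highest of 8) with exenatide, against 125, 152 and 232 CPM in 9 aged controls. The groups overlapped: 2 exenatide livers, B14 and B26, lay below the highest control, 232 CPM in B41, and the highest were B36 and B40. The log2 fold change was 0.92 ± 0.18 (SE; adjusted p = 0.00684). Its near copies Cyp2c69 and Cyp2c40 were 0.116, 7.86 and 21.7 and 0.437, 13 and 31.3 CPM with exenatide, against 0.819, 1.53 and 2.09 and 2.28, 3.33 and 3.88 CPM in aged controls. Above every control lay 6 of 8 exenatide livers for Cyp2c69 and 7 of 8 for Cyp2c40, and the library titled B14 was below all of them for both, at 0.116 and 0.437 CPM. Cyp2c69 had a log2 fold change of 2.58 ± 0.51 (adjusted p = 0.0102) and Cyp2c40 one of 2.15 ± 0.46 (adjusted p = 0.0179). These 3 calls held in every leave-one-out fit, with log2 fold changes of 0.82 to 1.01, 2.23 to 2.77 and 1.89 to 2.34. Cyp2c67, whose promoter is printed beside theirs, was 139.8, 286 and 412 CPM against 218, 270.4 and 312 CPM and was not called (log2 fold change -0.07 ± 0.17).

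The other calls were less firm. Cyp2c39, which shares no 100-base window with another gene, was 3.44, 7.02 and 19 CPM against 2.07, 2.73 and 6.35 CPM (log2 fold change 1.52 ± 0.35, adjusted p = 0.0289), with the highest values again in B36 and B40. Cyp4a31, of the fatty acid omega-hydroxylase subfamily, was 3.27, 10.8 and 101 CPM against 2.33, 3.06 and 10.3 CPM (2.66 ± 0.64, adjusted p = 0.0382); only B36, B26, B14 and B28 were above the highest control. Cyp2a22 was at 57.1 CPM in B36 and at 1.37 to 13.3 CPM in the other 7 exenatide livers, against 1.66 to 3.84 CPM in aged controls. Its log2 fold change of 2.08 ± 0.51 (adjusted p = 0.0431) was 0.93 and no longer called without B36. Cyp4a12b fell, to 0.144, 11.2 and 22.5 CPM against 20.6, 44.8 and 73.2 CPM (-2.07 ± 0.52, adjusted p = 0.0476); B28 and B36 were nearly without it, at 0.278 and 0.144 CPM, and only B13 lay within the control range. Cyp4v3 was 167, 289 and 363 CPM against 354, 393 and 561 CPM (-0.60 ± 0.14, adjusted p = 0.035), with 6 exenatide livers below every control. Each of these 5 lost its call in 7 to 11 of the leave-one-out fits, and the 8 calls became 3 to 5 without any 1 of the controls B15, B16, B24, B27, B34, B37 and B39 or of the exenatide livers B14 and B36.

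Several of the best-known liver members were not called. Cyp4a14 and Cyp4a10, textbook PPAR-alpha targets, were 179, 531 and 1797 and 122, 333 and 1007 CPM with exenatide, against 33.4, 138 and 337 and 139, 181 and 558 CPM in aged controls (adjusted p = 0.0623 and 0.297). B26 and B36 were the highest libraries for both genes. Cyp2e1 was 2061, 6213 and 10634 CPM against 6310.3, 8971 and 11205 CPM, with 2061 CPM in the library titled B14 and 3539.8 CPM in B36, and was not called (log2 fold change -0.44 ± 0.23). Cyp1a2 (-0.41 ± 0.33), Cyp3a11 (0.48 ± 0.21), Cyp2c29 (0.03 ± 0.19) and the CAR target Cyp2b10 (1.13 ± 0.65) were not called either. B14 and B36 also had the lowest Glul, a gene of pericentral hepatocytes where Cyp2e1 and Cyp1a2 are known to be made, at 284 and 268 CPM, and over the 10 pericentral marker genes the summed level was 1122 to 4357 CPM with exenatide, against 2354 to 4470.4 CPM in aged controls; its part in the P450 results was not tested.

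**Figure D2:**
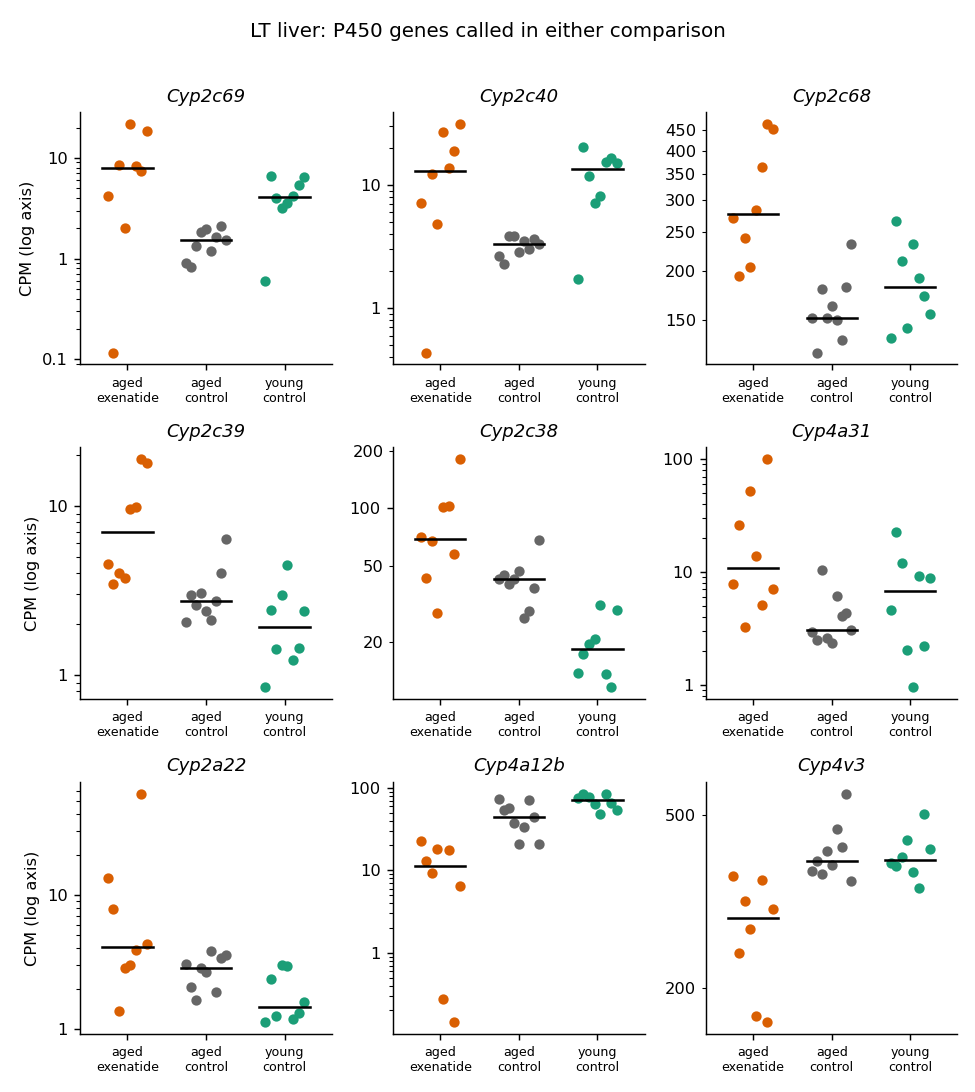
Level of the 9 members called in either LT liver comparison. Each point is 1 liver, the bar is the group median, and the vertical axis is CPM on a log scale, with aged exenatide, aged control and young control livers from left to right. Cyp2c69 and Cyp2c40 lie above the aged controls in most exenatide livers, with 1 exenatide library far below, and Cyp4a12b lies below them, while the groups overlap for all 9 genes.

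Age alone moved 2 of the 53 members in liver, against 4.5% of all genes: Cyp2c38 rose and Cyp2c40 fell. Cyp2c40 was 2.28, 3.33 and 3.88 CPM in aged controls, against 1.73, 13.5 and 20.3 CPM in young controls (log2 fold change -1.89 ± 0.46, adjusted p = 0.0207). Every aged liver was lower than 7 of the 8 young ones, and the remaining one, A51, was lower than all of them. Cyp2c38 was 26.7, 42.4 and 68.2 CPM in aged and 11.5, 18.4 and 31.2 CPM in young controls (1.11 ± 0.27, adjusted p = 0.0217), with the groups overlapping only between 26.7 and 31.2 CPM. Cyp2c69 had 0.819 to 2.09 CPM in aged and 0.603 to 6.67 CPM in young livers and missed the threshold (-1.53 ± 0.51, adjusted p = 0.0765). Both comparisons share the aged controls.

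Among the genes that work with P450 enzymes, Cux2, a homeobox factor of the list of P450 regulators, rose. It was 12.3 to 94.1 CPM in exenatide livers, against 0.153 to 3.68 CPM in aged controls, with no overlap (log2 fold change 5.46 ± 0.58, adjusted p = 4.93e-06). It was the only one of 21 tested regulators to be called, and the median over the 6 redox partners, which pass electrons to P450s, was -0.22 on the log2 scale. Conjugating enzymes, which act on P450 products, had 0 of 44 higher and 4 lower, among them the glucuronosyltransferases Ugt2b38 (log2 fold change -2.91 ± 0.58, adjusted p = 0.0102) and Ugt2b1 (log2 fold change -0.98 ± 0.20, adjusted p = 0.0109). Other oxidising and hydrolysing enzymes had 2 of 34 higher and 4 lower. The soluble epoxide hydrolase Ephx2, which opens the epoxides that Cyp2c and Cyp2j enzymes make, fell (log2 fold change -0.70 ± 0.12, adjusted p = 0.00354). The median log2 fold change of 26 PPAR-alpha targets was -0.16.

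Kidney had the smallest adjusted p-values for age among the 4 organs. Of 34 tested members 6 rose and 0 fell in aged controls relative to young controls, while 7.45% of all genes were called, and the median log2 fold change was 0.08 over the tested members and -0.0048 over all tested genes. Cyp2d12, of the subfamily that metabolises many amine drugs, was 223, 386 and 543 CPM in aged and 66.2, 87.5 and 96.2 CPM in young kidneys. All 9 aged kidneys were above all 8 young ones, a 4.54-fold difference (log2 2.18 ± 0.16, adjusted p = 3.33e-09) that was the same size in sequencing batch 3 (2.16) and batch 1 (2.21). Cyp2c23, an arachidonic acid epoxygenase, was 39, 51.7 and 76.8 CPM in aged and 17.9, 24.3 and 35.5 CPM in young kidneys, again with no overlap (log2 fold change 1.17 ± 0.18, adjusted p = 9.40e-05; 1.16 and 1.21 within batches 3 and 1). The leukotriene B4 hydroxylase Cyp4f15 was low but separate too, at 1.59 to 3.38 CPM in aged and 0.339 to 1.56 CPM in young kidneys (1.14 ± 0.30, adjusted p = 0.0176). Cyp4f18, another leukotriene B4 hydroxylase and one known from mouse leukocytes, was 1.32 to 3.52 against 0.508 to 1.62 CPM (1.38 ± 0.26, adjusted p = 0.001).

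The aged kidneys also carried more B and plasma cell transcripts: 6 of 8 marker genes rose, and their summed level was 183 to 975 CPM in aged and 19.4 to 52.3 CPM in young kidneys. Of 6 tested macrophage markers 5 rose, and the summed level of that list was 113 to 298 CPM in aged and 89.4 to 135 CPM in young kidneys. Their part in these results was not tested. Cyp2a5 (0.77 ± 0.21, adjusted p = 0.0265) and Cyp4v3 (0.37 ± 0.11, adjusted p = 0.041) completed the list. Cyp2a5 was 0.25 in batch 3 and 1.13 in batch 1, and Cyp4v3 0.69 and 0.18, so neither rested on both batches alike.

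Exenatide changed 5 of the 34 kidney members, 2 upward and 3 downward, 14.7% of them beside 14.2% of all genes, with a median log2 fold change of -0.02 over the members and 0.02 over all genes. The fatty acid omega-hydroxylase Cyp4a14 moved most, with 2008 CPM in B36 and 122 to 455 CPM in the other 7 exenatide kidneys, against 25.5, 38.3 and 91.4 CPM in aged controls. The groups did not overlap, and the log2 fold change was 3.23 ± 0.55 (adjusted p = 0.00145); without B36 it was 2.42 and still called. Within batches 3 and 1 it was 3.82 and 2.69. Its neighbour Cyp4a10 was 260.2, 542 and 1237 CPM against 238, 322 and 460.1 CPM and narrowly missed the threshold (0.73 ± 0.25, adjusted p = 0.052). Cyp2d22, thought of as the mouse counterpart of human CYP2D6, was 32.6, 38.6 and 61.6 CPM against 19.97, 26.8 and 32.2 CPM, every exenatide kidney being above every control (0.61 ± 0.11, adjusted p = 0.00185).

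The 3 genes that fell were epoxygenase genes of the Cyp2j subfamily. Cyp2j5 was 936, 1392 and 1725 CPM with exenatide, against 1416, 1703 and 2061 CPM in aged controls (-0.35 ± 0.09, adjusted p = 0.0184). Cyp2j11 was 101, 170.1 and 220.03 against 193, 229.8 and 279 CPM (-0.49 ± 0.12, adjusted p = 0.00921), and Cyp2j6 34, 40.1 and 48 against 44.8, 52 and 58.9 CPM (-0.37 ± 0.06, adjusted p = 0.00108). B36 was lowest for all 3, and the groups overlapped for each. In batch 1 alone only Cyp4a14 and Cyp2j6 remained called; the Cyp2j5 value there was -0.18 and the Cyp2j11 value -0.31. B36 stood apart in proximal tubule genes as well, with 509 CPM of Kap, an androgen-regulated tubule gene, against 9343 CPM or more in every other LT kidney, and over the 12 tubule markers exenatide kidneys summed to 16026 to 40039.7 CPM, against 37688 to 54142 CPM in aged controls; what this contributes was not tested. Of 24 PPAR-alpha targets, 7 rose and 1 fell with exenatide, among them Acot3 (log2 fold change 1.42 ± 0.24, adjusted p = 0.00108) and Acaa1b (log2 fold change 0.78 ± 0.17, adjusted p = 0.00677), while the fatty acid carrier Cd36 fell (log2 fold change -0.65 ± 0.18, adjusted p = 0.0214). Of 20 regulators 3 rose, among them Nr1i2 (log2 fold change 0.84 ± 0.19, adjusted p = 0.0064). That count lies near the share of all genes called with exenatide in kidney, given above. Of 17 eicosanoid enzymes 5 rose and 0 fell, with Ltc4s, the leukotriene C4 synthase, the firmest (log2 fold change 0.72 ± 0.16, adjusted p = 0.00715).

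**Figure D3:**
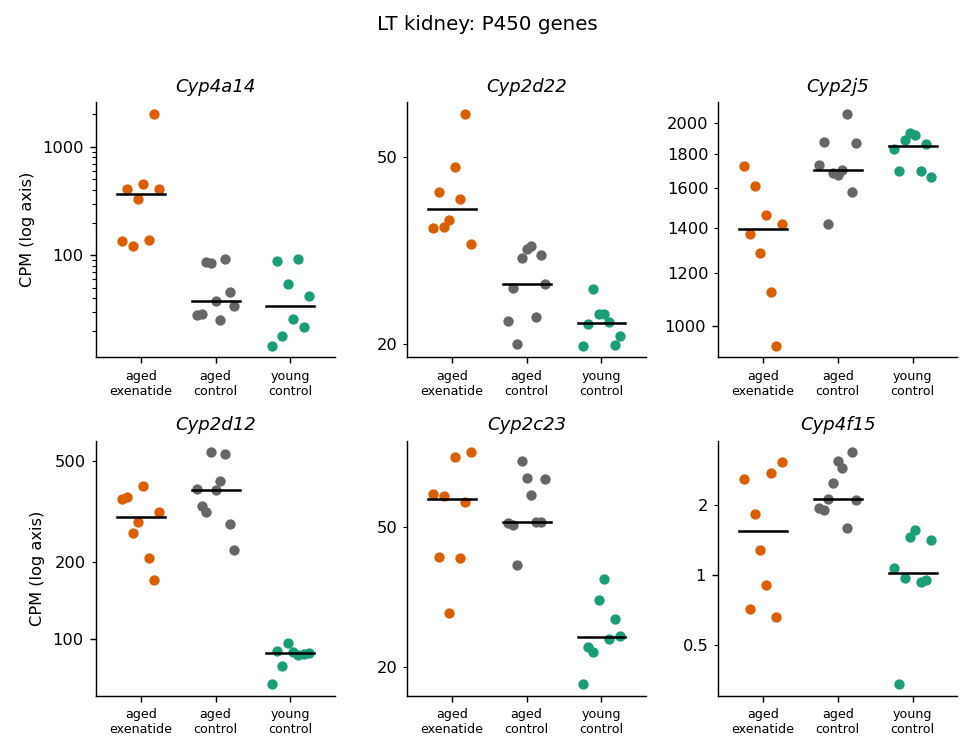
Level of 6 members in LT kidney. Each point is 1 kidney, the bar is the group median, and the vertical axis is CPM on a log scale, with aged exenatide, aged control and young control kidneys from left to right. The top row shows genes called with exenatide and the bottom row genes called with age: the exenatide and aged control groups are separate for Cyp4a14 and Cyp2d22, and the aged and young control groups for Cyp2d12, Cyp2c23 and Cyp4f15.

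Few lung members were called. With age 2 of 24 tested members rose and 0 fell, beside 6.43% of all genes, and the median log2 fold change was 0.06 over the members and -0.0044 over all genes. Cyp2s1, an epithelial member, was 179.8, 217 and 266 CPM in aged and 133, 166 and 194 CPM in young lungs, overlapping only at the edges (0.42 ± 0.10, adjusted p = 0.0136). Cyp2b10 was 422, 496 and 628 CPM in aged and 278, 379.9 and 489 CPM in young lungs (0.49 ± 0.14, adjusted p = 0.0391). Within batch 3 the log2 fold changes were 0.26 for Cyp2s1 and 0.07 for Cyp2b10, neither called, and within batch 2 they were 0.50 and 0.72, both called, and without any 1 of A54 to A58, B15, B24, B27, B34 and B39 1 member was called. With exenatide edgeR called 0 of the 24, beside 0.609% of all genes; 5 had an unadjusted p under 0.05, and DESeq2 called 1. Cyp2f2 came nearest, at 1282, 2453 and 3010.2 CPM with exenatide, against 2903, 3351 and 4207 CPM in aged controls (log2 fold change -0.59 ± 0.14, adjusted p = 0.0505). The 8 club cell markers, which label the cells that hold Cyp2f2, summed to 19889.9 to 44384 CPM with exenatide, against 31527 to 51864 CPM in aged controls; their part was not tested.

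Cyp1a1, which oxidises polycyclic aromatic hydrocarbons, was not called in lung but split the animals there; it is described because of these values. Exenatide-treated B26, B36 and B14 had 139, 93 and 67.7 CPM, and the other 5 had 8.04 to 12.8 CPM, against 6.75 to 22.2 CPM in aged controls. Young A56 and A52 had 85.5 and 83.6 CPM, and the other 6 young controls 3.51 to 14.3 CPM. The same animals were high in heart and adipose tissue, and not in every tissue. In heart, B36, B26 and B14 had 27.7, 17.1 and 9.04 CPM and the other 5 exenatide hearts 1.01 to 4.14 CPM, the highest of these being B28, against at most 2.28 CPM in aged controls. Young A56 and A52 had 4.9 and 1.56 CPM, against 0.778 CPM or less in the other young hearts. In adipose tissue the 3 exenatide animals had 13.6, 2.54 and 1.43 CPM, against at most 0.363 CPM in aged controls. A56 and A52 had 9.98 and 4.0 CPM, against 0.895 CPM or less in the other young animals. In skeletal muscle B36, B26 and B14 had 6.94, 6.12 and 2.92 CPM, beside 2.63 CPM in B13, against at most 1.94 CPM in aged controls. Young A52 had 1.78 CPM, less than A54 (2.04 CPM). Spleen did not set B14, B26, B36 or A52 apart: B14, B26 and B36 had 0.396, 0.386 and 0.307 CPM, within the 0.0799 to 0.399 CPM of aged controls. A52 had 0.248 CPM, less than A54 (0.661 CPM) and A57 (0.638 CPM), whereas A56 had the highest spleen value, 0.701 CPM. Liver did not share the pattern either, with 0.215 CPM in B36 and 0.27 CPM in A52, the lowest values of their groups. Of 3 other genes known to respond to the aryl hydrocarbon receptor, Nqo1 was highest in the same lungs of each group (36.1, 31.7 and 25.9 CPM in B36, B14 and B26, and 16.1 and 15.8 CPM in A52 and A56), and Tiparp and Ahrr did not set them apart.

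The fitted exenatide differences of Cyp1a1 rest on these animals. In heart, where 4.01% of all genes were called, the log2 fold change was 3.0 ± 0.76 (adjusted p = 0.0318), 1.85 without B36 and not called in 7 of the leave-one-out fits; in adipose tissue it was 5.04 ± 1.36 (adjusted p = 0.0125), and 2.5 and not called without B36. In ST hearts an aged control was the exception: E13 had 29.6 CPM and the other 4 aged controls 0.0579 to 0.315 CPM, so that the rapamycin difference of -4.91 ± 1.47 (adjusted p = 0.0192) became 0.19 without that library.

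**Figure D4:**
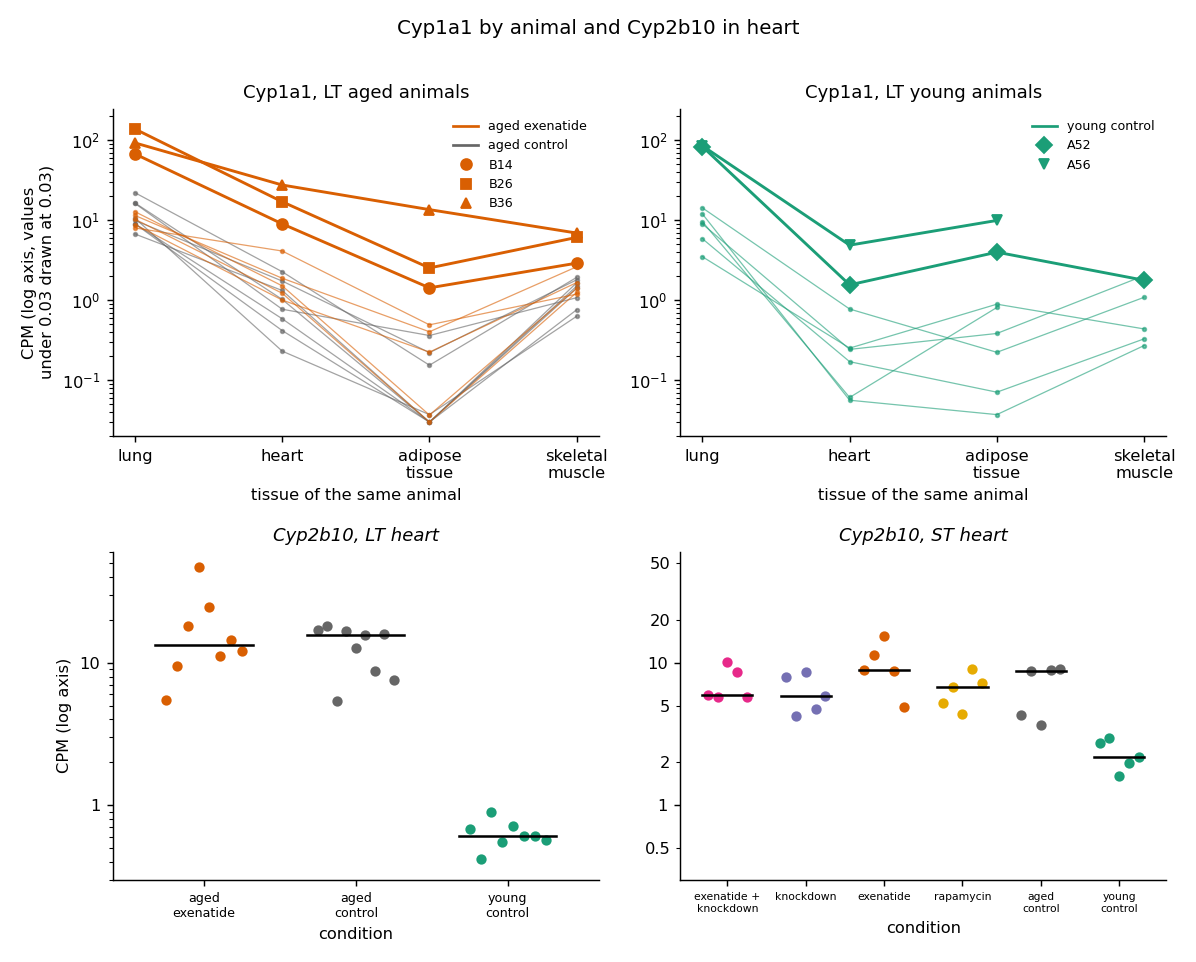
Top: Cyp1a1 in lung, heart, adipose tissue and skeletal muscle, with a line for each LT animal (aged on the left, young on the right), thick lines and large symbols for B14, B26, B36, A52 and A56, and CPM on a log axis with values under 0.03 drawn at 0.03. The thick lines run above nearly all others in lung, heart and adipose tissue. Bottom: Cyp2b10 in LT and ST heart, with 1 point per animal, a bar at the group median and CPM on a log axis; the young controls lie below every aged group.

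In LT colon 14 of 32 tested members fell and 0 rose in aged controls relative to young controls, beside 14.4% of all genes (median log2 fold change -0.67 over the members and -0.0019 over all genes), and most of this rests on young A52 and A53. Cyp4v3 had 606 and 1281 CPM in them, against 9.54 to 13.6 CPM in aged controls and 11.2 to 18.3 CPM in the other 4 young colons. Cyp2d34 showed the reverse, with 0.174 and 0 CPM in them, against 151 to 289 CPM in aged controls. Cyp2c55, the most abundant member of colon, had 34.8 and 35.8 CPM there, against 110.1 to 469.7 CPM in aged controls. Cyp2u1, Cyp1b1 and Cyp4f14 changed sign without the 2 libraries, to log2 fold changes of 0.02, 0.33 and 0.38. Without A52 alone 7 members were called and without A53 alone 4; leaving both out, 4 members were called, all lower in aged colons, beside 3.96% of all genes.

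These 4 were Cyp2c68, Cyp2c69, Cyp2e1 and Cyp2f2. Cyp2c68 was 1.23, 2.85 and 8.19 CPM in aged controls, against 4.51, 42.8, 77.5 and 22.7 CPM in young A54, A55, A56 and A57. A54 lay within the aged range and the other 3 above it, and the log2 fold change without A52 and A53 was -3.34 ± 0.68 (adjusted p = 0.0112). Cyp2c69 was -2.84 ± 0.70 (adjusted p = 0.0283), with 0 to 0.952 CPM in aged controls, against 0.505, 6.83, 6.27 and 3.66 CPM in the same 4 young colons. Cyp2e1 was -2.37 ± 0.60 (adjusted p = 0.0318), with 0.608 to 9.12 CPM in aged controls, against 19.8, 4.38, 46.5 and 22.8 CPM in these young colons, and Cyp2f2 -4.54 ± 1.0 (adjusted p = 0.0164); Cyp2f2 was low, at 0.0468 to 0.528 CPM in aged controls, against 0.101, 4.23, 10.1 and 2.14 CPM in the same young colons. Adipocyte markers, 4 of 7 of which were called lower with age over all libraries, summed to 22.4 to 72 CPM in aged and 24.9 to 239 CPM in young colons, and adipose tissue is a site of high Cyp2e1; the contribution was not tested. With exenatide edgeR called 0 of the 32 members, beside 12.1% of all genes; 2 had an unadjusted p under 0.05, and DESeq2 called 0. Cyp2c68 was 3.22 to 34.3 CPM with exenatide, highest in B36 and B26, against 1.23 to 8.19 CPM in aged controls (1.48 ± 0.58, adjusted p = 0.1). Without A52 and A53 1 member, Cyp4f13, was called (-0.33 ± 0.11, adjusted p = 0.0424), beside 18.5% of all genes.

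**Figure D5:**
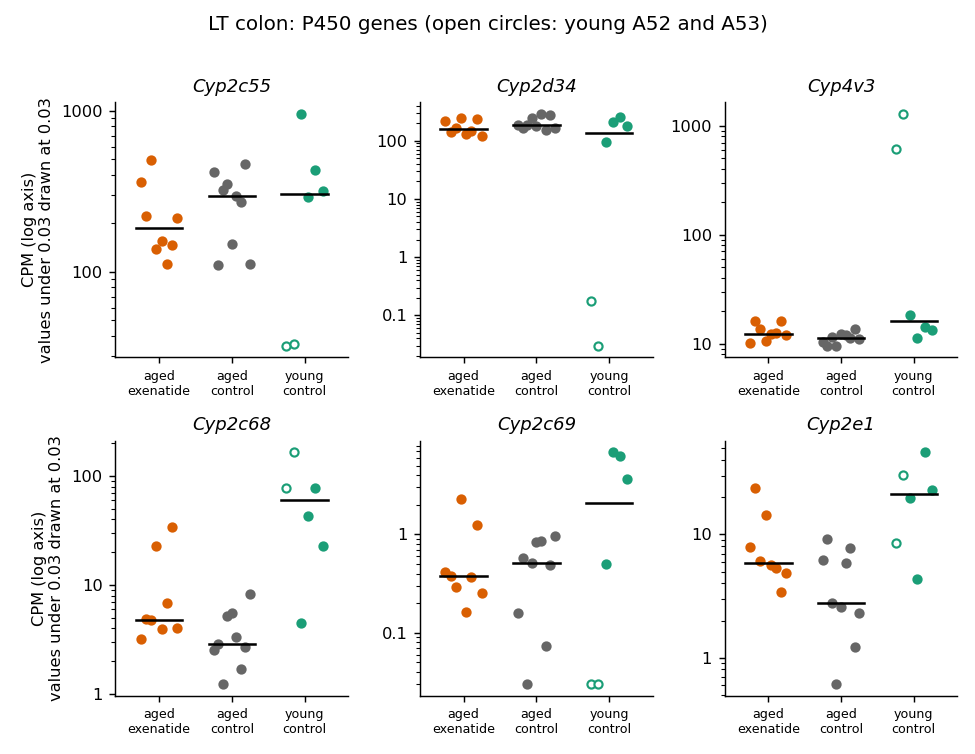
Level of 6 members in LT colon. Each point is 1 colon, open circles are young A52 and A53, the bar is the median of all points of a group, and the vertical axis is CPM on a log scale with values under 0.03 drawn at 0.03. Groups run from aged exenatide over aged control to young control. The open circles set the young group apart for Cyp4v3 and Cyp2d34, while for Cyp2c68, Cyp2c69 and Cyp2e1 most filled young points also lie above the aged controls.

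Colon was the one organ of the 4 that YA and ST also covered. In colon of the young YA mice, exenatide raised 3 of 32 tested members and lowered 0, beside 4.61% of all genes. Cyp2d13, which the RefSeq annotation lists as a transcribed pseudogene and not as a protein-coding gene, was 30.4, 36.7 and 40.6 CPM with exenatide, against 14.4, 20.9 and 30.4 CPM in controls, the groups touching at a single value (0.75 ± 0.12, adjusted p = 0.00359). Cyp4f40 was 27.3, 32.8 and 50.3 CPM against 21.6, 22.1 and 27.4 CPM (0.56 ± 0.10, adjusted p = 0.00656), and Cyp4f16 83.2, 97.9 and 120.2 CPM against 58.5, 77.6 and 87.8 CPM (0.38 ± 0.10, adjusted p = 0.0304, not called in 6 leave-one-out fits). Beside this, 4 of 7 goblet cell markers fell and 3 of 8 markers of absorptive cells rose; goblet markers summed to 12938 to 48009 CPM with exenatide and 48228 to 101772 CPM in controls, and their part was not tested. In aged LT colons, Cyp2d13 was 6.05 to 34.4 CPM with exenatide and 2.29 to 12.3 CPM in aged controls and was not called. In ST colon edgeR called 0 of 35 members in each of the 5 comparisons; at an unadjusted p under 0.05 there were 6 for age, 1 for exenatide, 8 for rapamycin, 0 for the knockdown and 2 for exenatide within the knockdown, and DESeq2 called 1 for rapamycin and 0 in the rest. All-gene shares called by edgeR there, at an adjusted p under 0.05, were 0.0221%, 0.105%, 0.392%, 0% and 0.166%.

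In the other 8 LT tissues, where the members are far less abundant, 17 of 141 gene and tissue pairs rose and 6 fell with age, in all 23 or 16.3%, beside 16.2% of all gene and tissue pairs. By tissue, the share of all genes called with age was 50.8% in adipose tissue, 27.7% in white blood cells, 17.9% in heart, 11.7% in skeletal muscle, 11.2% in spleen, 7.09% in hypothalamus and 5.74% in frontal cortex. Cyp2b10, best known as the CAR-inducible phenobarbital-responsive enzyme of liver, rose with age in the most tissues: in LT heart, spleen and white blood cells as well as lung. In heart it was 5.36, 15.6 and 18.3 CPM in aged and 0.42, 0.611 and 0.901 CPM in young controls, a 20.6-fold difference with no overlap (log2 4.36 ± 0.40, adjusted p = 1.51e-07; 3.81 in batch 3 and 4.72 in batch 2). Exenatide-treated aged hearts held 5.48, 13.2 and 46.8 CPM. ST hearts gave the same direction with another set of animals, at 4.27, 8.74, 3.64, 8.9 and 9.0 CPM in the 5 aged controls, against 2.73, 2.97, 1.6, 1.98 and 2.16 CPM in the 5 young controls (1.59 ± 0.30, adjusted p = 0.00276). The ST young hearts were thus higher than the LT young ones, in a table normalised separately, and YA hearts held 0.862 to 8.24 CPM with exenatide and 1.63 to 5.64 CPM in controls. In hearts, T and NK cell markers rose with age in LT (3 of 5, summed 2.56 to 9.76 CPM in aged and 1.95 to 3.05 CPM in young) and macrophage markers in ST (6 of 7), and their part in the Cyp2b10 values was not tested.

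In white blood cells Cyp2b10 was 3.91, 8.38, 19.1, 12.8 and 15.7 CPM in the 5 aged controls, against 2.62, 4.14, 1.32, 1.78 and 1.49 CPM in the 5 young controls. Only the lowest aged value fell inside the young range (2.4 ± 0.50, adjusted p = 0.00546). In ST white blood cells it was 2.11, 3.09, 5.89, 7.06 and 1.87 CPM in aged and 2.38, 3.3, 1.43, 1.89 and 5.14 CPM in young controls and was not called (0.47 ± 0.65, adjusted p = 0.624). YA white blood cells, normalised separately, held 1.97, 16 and 29.6 CPM of Cyp2b10 in controls (lowest, median and highest). With exenatide they held 2.3, 8.45 and 10.3 CPM. In the LT white blood cells 4 of 5 neutrophil markers rose with age, with a summed level of 2899 to 7758 CPM in aged and 926 to 3734 CPM in young controls. Of 4 tested smooth muscle markers 3 rose, with a summed level of 66.6 to 183 CPM in aged and 27.2 to 53.4 CPM in young controls. The club cell list, of which 2 genes were tested and 1 rose, summed to 410.1 to 1144 CPM in aged and 104 to 405 CPM in young controls. Of 8 B and plasma cell markers 5 fell and 1 rose. Their part in the Cyp2b10 values was not tested. In spleen it was low, at 0.133 to 0.918 CPM in aged and 0 to 0.233 CPM in young controls (2.06 ± 0.49, adjusted p = 0.00935). There B and plasma cell markers summed to 10770.2 to 17606 CPM in aged and 5990.3 to 8838 CPM in young controls (3 of 8 rose and 1 fell). Their part was not tested. Liver, where the gene is best known, had 0.198 to 12.8 CPM in aged and 0.578 to 13.9 CPM in young controls and was not called. The leukotriene hydroxylases Cyp4f15 and Cyp4f18 were called in 3 tissues each with age. Cyp4f15 rose in heart, with 1.03 to 2.39 CPM in aged and 0 to 0.507 CPM in young controls and no overlap (2.44 ± 0.47, adjusted p = 0.000949). It also rose in hypothalamus (0.39 ± 0.11, adjusted p = 0.0366) and kidney. In ST heart Cyp4f15 was 0.0579 to 0.702 CPM in aged and 0.111 to 1.05 CPM in young controls. There it leaned the other way and was not called (-0.84 ± 0.69, adjusted p = 0.373). Cyp4f18 rose in adipose tissue (1.96 ± 0.34, adjusted p = 0.00013), skeletal muscle (1.87 ± 0.38, adjusted p = 0.00407) and kidney. Cyp2j6 fell with age in LT muscle (-0.61 ± 0.18, adjusted p = 0.0286), adipose tissue (-0.34 ± 0.13, adjusted p = 0.0314) and hypothalamus (-0.31 ± 0.09, adjusted p = 0.0318). In ST heart it was called in the other direction. It was 13.8 to 25.2 CPM in aged and 11.2 to 15.8 CPM in young controls there (0.53 ± 0.16, adjusted p = 0.0214).

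Adipose tissue held the highest P450 share outside the 4 organs, 0.418% of counts with exenatide, 0.24% in aged controls and 0.546% in young controls, most of it Cyp2e1. Cyp2e1 was 1392, 3789.9 and 6707 CPM with exenatide, 308, 2121 and 2827 CPM in aged and 1466, 4923 and 8360.5 CPM in young controls (aged against young -1.58 ± 0.39, adjusted p = 0.00203; exenatide against aged controls 1.17 ± 0.39, adjusted p = 0.0355). The adipocyte markers summed to 6957 to 28032 CPM with exenatide, 2319 to 10497 CPM in aged and 10566 to 21222 CPM in young controls, while macrophage markers summed to 3889 to 10219.8 CPM in aged and 1116 to 4923 CPM in young controls; the part of cell makeup was not tested. With age Cyp1b1, which hydroxylates oestrogens and aromatic hydrocarbons (1.15 ± 0.19, adjusted p = 9.72e-05), and Cyp4v3 (0.75 ± 0.16, adjusted p = 0.000499) rose. Exenatide then raised 6 and lowered 1 of the 141 pairs of the 8 tissues, 4.96%, beside 3.85% of all pairs, and 5 of the 7 were in adipose tissue, where exenatide changed 18.8% of all genes; without B16 or B24 4 pairs were called. There Cyp2f2 was 16.7, 75.8 and 195 CPM against 16.1, 19.8 and 52.9 CPM (1.69 ± 0.42, adjusted p = 0.00756), and Cyp4v3 was 64.5, 99.2 and 148 CPM against 102, 144 and 189 CPM (-0.56 ± 0.15, adjusted p = 0.0145). Cyp2s1 rose with age in spleen (1.17 ± 0.21, adjusted p = 0.000806), as did Cyp4f16 (0.42 ± 0.10, adjusted p = 0.0118), and Cyp4x1 in white blood cells (2.1 ± 0.55, adjusted p = 0.0129). In ST white blood cells Cyp4x1 was not called with age (0.12 ± 0.59, adjusted p = 0.901). In YA edgeR called 0 of 112 pairs outside colon, beside 0.00183% of all pairs; 13 had an unadjusted p under 0.05, and DESeq2 called 0.

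In the 3 LT brain regions the highest levels per kilobase, without the young A53 hippocampus, were those of Cyp2d22, Cyp2j6 and Cyp2j9. The last is known in mouse brain for making 19-hydroxyeicosatetraenoic acid. With that library included, Cyp2e1 was the highest in hippocampus, at 15.7 CPM per kb. In hypothalamus Cyp2d22, Cyp2j6 and Cyp2j9 were 10.7, 11.9 and 14.3 CPM per kb. Cyp2j9 was highest there among the 12 tissues, whereas Cyp2d22 was higher in liver (74.6 CPM per kb) and Cyp2j6 in colon (25.3 CPM per kb without young A52 and A53). Cyp2d22 rose with age in LT frontal cortex, 29.1, 41.1 and 44.1 CPM in aged and 29.7, 31.4 and 34.6 CPM in young controls (0.30 ± 0.06, adjusted p = 0.00498), in LT hypothalamus (0.20 ± 0.05, adjusted p = 0.0226) and in ST hippocampus. In ST hippocampus it was 46.4, 48.4, 42.6, 46.4 and 42.9 CPM in aged and 36.4, 33, 38.2, 37.7 and 35.1 CPM in young controls, with no overlap (0.33 ± 0.06, adjusted p = 0.000168). Cyp2a5 was low in LT frontal cortex, at 0.343 to 1.44 CPM in aged and 0.0371 to 0.385 CPM in young controls, and rose (2.03 ± 0.32, adjusted p = 0.000379). In LT hypothalamus Cyp2j6 was the one member called with exenatide, beside 6.2% of all genes (0.31 ± 0.09, adjusted p = 0.0385), and it was not called in 12 of the leave-one-out fits.

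Cyp2j9 in ST hippocampus was called in 4 comparisons. It was 20.3, 24.1, 20.7, 19.8 and 17.5 CPM with exenatide, 17.3, 18.2, 18.6, 17.9 and 15.7 CPM with rapamycin, 28, 25, 23.2, 25.7 and 22.5 CPM in aged controls and 17, 18.6, 18.5, 20.3 and 16.4 CPM in young controls. Aged controls lay above all young controls (0.45 ± 0.09, adjusted p = 0.000275) and above all rapamycin-treated animals (-0.50 ± 0.09, adjusted p = 6.48e-05), and exenatide was lower than aged controls with overlap (-0.28 ± 0.09, adjusted p = 0.015); the 3 values share the aged controls. The pair of knockdown groups shares no animal with these: exenatide within the knockdown gave 20.8, 21.6, 19.8, 19.6 and 18.2 CPM, against 34.5, 25.8, 26.9, 27.5 and 23.4 CPM with the knockdown alone, with no overlap (-0.47 ± 0.09, adjusted p = 0.000121). Cyp2j6 followed in the same pair (23.4, 23, 21.8, 23.3 and 22.1 CPM against 26.3, 24.2, 29.5, 29 and 28.5 CPM; -0.27 ± 0.07, adjusted p = 0.00164). Whether the exenatide effect differed with and without the knockdown was not tested. These comparisons called 26% (age), 28.6% (exenatide), 27.6% (rapamycin) and 31.3% (exenatide within the knockdown) of all genes. LT hippocampus did not show the lower Cyp2j9 with exenatide, at 23.1 to 39.1 CPM against 23.4 to 33.8 CPM in aged controls. Its LT age difference there was not called (0.33 ± 0.09, adjusted p = 0.17). In YA hippocampus Cyp2j9 was 18.3 to 25.6 CPM with exenatide and 18.8 to 32.8 CPM in controls and was not called (-0.08 ± 0.11).

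Over the 6 ST tissues besides colon, 17 of 110 gene and tissue pairs rose and 1 fell with age (16.4%, beside 16% of all pairs), 1 rose and 3 fell with exenatide (3.64%, beside 9.42%, and 1 or 2 in all without E7, E19, E23 or E31), 6 rose and 9 fell with rapamycin (13.6%, beside 15.5%, and 7 to 9 pairs in all without E6, E13, E22 or E23), and 0 rose and 2 fell with exenatide within the knockdown (1.82%, beside 5.8%, and 4 to 7 in all without E8, E12 or E34). The knockdown alone gave 0 calls by edgeR, beside 3.86% of all pairs; 14 had an unadjusted p under 0.05, and DESeq2 called 1. By tissue, age called 24.6% of all genes in heart, 23.6% in white blood cells, 18.5% in muscle and 5.56% in frontal cortex, rapamycin 23.3% in heart, 18.2% in frontal cortex and 10.2% in muscle, and exenatide 2.47% in heart. Cyp2e1 was low in brain but higher with age in ST frontal cortex, 1.2, 1.48, 1.59, 1.35 and 1.12 CPM in aged and 0.273, 0.635, 0.0407, 0.233 and 0.65 CPM in young controls (1.86 ± 0.36, adjusted p = 0.0023), and in ST hippocampus (1.97 ± 0.38, adjusted p = 0.000299), with no overlap in either. In LT the groups overlapped in both tissues. LT frontal cortex had 0.152 to 0.791 CPM of Cyp2e1 in aged and 0 to 1.1 CPM in young controls. LT hippocampus had 0.122 to 1.25 CPM in aged controls and 0.0416 to 0.581 CPM in young controls without A53. With rapamycin Cyp2j9 and Cyp2a5 fell in ST frontal cortex (-0.41 ± 0.11, adjusted p = 0.0107, and -1.62 ± 0.42, adjusted p = 0.00882), without overlap. In ST heart, Cyp2r1, the vitamin D 25-hydroxylase, was 0.291, 0.183, 0.366, 0.297 and 0.343 CPM with exenatide, 1.05, 1.22, 0.83, 0.5679 and 0.678 CPM in aged controls and 0.334, 0.171, 0.237, 0.291 and 0.117 CPM in young controls. It rose with age (1.89 ± 0.39, adjusted p = 0.0041) and was lower with exenatide than in aged controls (-1.53 ± 0.38, adjusted p = 0.0328), the exenatide difference not being called in 7 leave-one-out fits. In LT heart Cyp2r1 did not pass the filter on low counts. It was 0.054 to 0.474 CPM in aged and 0.122 to 0.779 CPM in young controls there. Cyp4f13 was higher in ST heart with exenatide (0.71 ± 0.14, adjusted p = 0.0109, not called without E13) and with rapamycin (0.59 ± 0.14, adjusted p = 0.006). Cyp1b1 rose with age in ST heart (1.24 ± 0.30, adjusted p = 0.00708). In ST white blood cells Cyp4f16, a relative of the leukotriene hydroxylases, was 32.4, 53.8, 29, 46.6 and 39.6 CPM in aged and 19.1, 15.2, 21, 24.5 and 18.5 CPM in young controls (1.04 ± 0.28, adjusted p = 0.0104), with no overlap. In LT white blood cells it was 19.7 to 35.5 CPM in aged and 17.4 to 31.8 CPM in young controls. There it was not called (0.07 ± 0.33, adjusted p = 0.891). In ST muscle Cyp2e1 was lower with rapamycin (-2.44 ± 0.75, adjusted p = 0.0389), where adipocyte markers summed to 31.1 to 183 CPM with rapamycin and 144 to 254 CPM in aged controls; their part was not tested.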

How the data were processed

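Poly(A) RNA had been made into unstranded libraries, per the labels' protocols. For LT the authors deposited whole-number read counts per gene (24850 genes), and for ST and YA a table of expected counts (40840 genes), which were rounded to whole numbers here. The submitters' processing notes name FastQC 0.11.9 and build GRCm39; the aligner and counting tool are not given in the sources used here. Without strand, reads of overlapping genes cannot be told apart. The labels call the conditions A, Y and Ex inside LT, YA and ST without expanding them; A and Y were read as aged and young, and Ex as exenatide. Within each cohort and tissue, all conditions entered 1 edgeR 4.0.16 fit (R 4.3.3; filterByExpr, TMM scaling, robust quasi-likelihood), with the sequencing batch as a term in LT tissues that had 2 batches. P-values were adjusted over all genes tested in a tissue and comparison, and an adjusted p under 0.05 was a call; they measure the spread between animals. Levels are TMM-scaled CPM, SE is that of the log2 fold change, and log2 fold changes put the first-named group on top. Shares of all genes are at an adjusted p under 0.05. Counts at an unadjusted p have no all-gene share beside them. Exon lengths came from a GRCm38 annotation and promoters from RefSeq, which held 53 of the 67 members; the remaining 14 were not analysed for motifs. DESeq2 1.42.0, other scalings, no filter, fits of 2 conditions, batches alone and leaving out each animal were alternatives, and the exclusion of named libraries was added after seeing the data. The members, gene lists and tests were chosen with earlier results of these data known. Genes named are, per comparison, up to 15 called members by smallest adjusted p in liver, kidney, lung and colon and up to 3 in other tissues, the 8 highest per organ, members called in 3 or more tissues in 1 direction, and up to 4 pathway genes per list; Cyp1a1 in lung, lung Nqo1, Cyp2c67, other members given as not called, and the second-rank comparisons of brain were chosen after their values were seen. The fit was tested on simulated data. Some genes of the pathway lists are not reported here.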

Additional observations from a re-analysis of the deposited data

Results flagged for a closer look

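In 6 of 105 groups of 4 to 10 libraries, taken over the named members, 1 library lay far from the rest of its group by Dixon's ratio on log values (5.71%, where 1 in 20, about 5.2 groups, is what chance gives). In liver, Cyp2c40 was 0.437 CPM in the exenatide library titled B14, against 4.84 to 31.3 CPM in the other 7, and 1.73 CPM in young A51, against 7.2 to 20.3 CPM in the other 7 young livers. In kidney, Cyp4a14 was 2008 CPM in exenatide-treated B36, against 122 to 455 CPM in the other 7, and Cyp4f15 was 0.339 CPM in young A52, against 0.932 to 1.56 CPM in the other 7 young kidneys. In colon, Cyp2d22 was 65.4 CPM in young A53, 1 of the 2 libraries with small intestine transcripts, against 14.7 to 25.6 CPM in the other 5, and Cyp4f16 was 58.5 CPM in YA control A41, against 72.9 to 87.8 CPM in the other 7 controls.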

How the results depend on the processing

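Of 91 named differences, 29 were called under every alternative and every leave-one-out fit, 41 lost the call in at least 1 leave-one-out fit, 58 in at least 1 other alternative, and 4 changed sign in at least 1. Those 4 were Cyp2u1 (0.024), Cyp1b1 (0.33) and Cyp4f14 (0.38) in LT colon with age without A52 and A53, and Cyp1a1 (0.19) in ST heart with rapamycin without E13 (-5.34 to 0.19 over leave-one-out fits); these exclusions were chosen after seeing the data. Counts of members called moved by over 1.5 times as follows. Except for colon without A52 and A53, the share of all genes called under each setting is not given. The counts therefore cannot tell a change in the members from a change in all genes. With DESeq2's Wald test, liver gave 4 with age (2 by edgeR) and 13 with exenatide (8), kidney 10 with exenatide (5), lung 1 with exenatide (0), ST colon 1 with rapamycin (0), and the other ST tissues 1 with the knockdown (0) and 8 with exenatide within it (2); with its size factors in edgeR, lung gave 1 with exenatide. With only the 2 conditions compared in the fit, liver gave 4 with age and 5 with exenatide, colon 4 with age (14) and 3 with exenatide (0), and the other ST tissues 6 with rapamycin (15). Without the filter on low counts, liver gave 5 with exenatide. Without the batch term, lung gave 1 with age (2) and the other LT tissues 4 with exenatide (7). In batch 3 alone the counts were 0 for lung with age, 7 for colon with age, and 5 (23) and 1 for the other LT tissues with age and exenatide; in batches 1 and 2 alone they were 2 for kidney with exenatide, 1 for colon with age, and 14 and 2 for the other LT tissues. Without A52 and A53, colon gave 4 with age and 1 with exenatide, and without E13 in heart the other ST tissues gave 2 with exenatide (4). Leaving out 1 animal at a time gave 3 to 9 in liver with exenatide, 1 to 3 in lung with age, 0 to 2 in lung with exenatide, 4 to 16 in colon with age, 4 to 9 in the other LT tissues with exenatide, 0 to 1 in ST colon with rapamycin, and in the other ST tissues 1 to 6 with exenatide, 7 to 15 with rapamycin, 0 to 3 with the knockdown and 2 to 7 with exenatide within it. The causes were not tested, beyond the smaller number of animals where some were left out. No paired analysis was possible because each animal belonged to 1 condition and the animal numbers are not shared between conditions. Members near the floor of detection, such as Cyp4f15 in kidney or Cyp2r1 in heart, rest on few reads per library, and near-identical Cyp2c and Cyp4a copies may exchange reads.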
